A study of Mus musculus and Homo sapiens with 4 samples.

Results

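The glycolytic enzymes GAPDH, ENO1 and PKM were followed through 4 ribosome profiling libraries, in which the short RNA pieces shielded by ribosomes from nuclease are sequenced and counted. They were represented by 11 Ensembl transcripts of 288251 listed in the files. In human these were 4 transcripts of GAPDH, 1 of ENO1 and 2 of PKM, and in mouse 2 of Gapdh, 1 of Eno1 and 1 of Pkm. The members were chosen by transcript identifier alone, all 11 were found, and each had a counted coding region. The files give no gene names, so the pairing of identifiers with genes comes from that list and could not be checked against the data.

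Glycolysis splits glucose into pyruvate in the cytosol and yields ATP and NADH. GAPDH (glyceraldehyde-phosphate dehydrogenase) carries out its oxidation step and makes NADH, ENO1 (enolase) forms phosphoenolpyruvate, and PKM (muscle-type pyruvate kinase) turns phosphoenolpyruvate into pyruvate with the gain of ATP. These enzymes are abundant in most dividing cells, and PKM is known for alternative splicing that gives a pair of enzyme forms. A leader is the untranslated stretch before the coding region and a trailer the one after it.

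One pair of libraries was made from HEK, a line of human embryonic kidney origin, grown in DMEM with 10% serum. The input library was made after size exclusion chromatography of digested lysate, and for the bound library assembled ribosomes were then pulled down with streptavidin by a tag on their large subunit. The other pair came from E14 mouse embryonic stem (ES) cells of 129/Ola background, kept with LIF and without feeder cells, and exposed for 60 s either to cycloheximide at 100 µg/ml or to emetine, whose dose the labels do not give. Both drugs stop ribosomes during elongation. The labels do not say what the tag is, whether the cells of the input carried it, or whether the libraries of a pair shared a culture. Each group had 1 library, so no test between conditions was possible, and all intervals are 95% intervals for counting error only.

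Counts listed for coding regions summed to between 7631840 and 163107357 per library. Transcripts of a gene share reads, so these sums are not read numbers. Ratios between the libraries of a pair were scaled to give the median coding region, among those with at least 100 summed reads, a log2 ratio of 0. The median scaled log2 ratio differed with abundance, from -0.061 in HEK coding regions with 100 to under 300 summed reads to 0.13 in those with at least 10000, so each enzyme was also placed among coding regions with similarly many reads. GAPDH, ENO1 and PKM all have near-identical processed pseudogene copies, and no source used here says how reads with several matches were treated, which leaves their counts uncertain. Markers of HEK or ES cells were not examined, since the name tables used here hold 0 of the transcript identifiers. For the same reason the other enzymes of glycolysis were not analysed here. On the mouse assembly GRCm38.p6, which corresponds to mm10, the genes lie at chr6:125161852-125166467 (Gapdh), chr4:150236708-150248879 (Eno1) and chr9:59656576-59679372 (Pkm).

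The coding regions of the 3 enzymes together, with the first listed transcript of each gene as its main one, held 0.357% of all coding counts before capture (interval 0.353 to 0.362) and 0.403% after it (0.400 to 0.406) in HEK cells. In ES cells they held 0.424% with cycloheximide (0.423 to 0.425) and 0.319% with emetine (0.318 to 0.320). The combined share was thus higher after capture and lower with emetine. Where coding regions with identical counts were counted once in the total, the shares were 0.508% and 0.570% in HEK cells and 0.492% and 0.369% in ES cells. Species, lysate handling and annotation differ between the pairs, so the HEK and ES cell shares stand side by side without a comparison. Each library pools many cells, and fewer cells making an enzyme cannot be told apart from fewer footprints per cell.

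ENO1 had the most coding reads of the 3 enzymes in all 4 libraries and PKM the fewest. The files give no lengths, so this order is one of reads and not of level per base. The ENO1 coding region had 13072 input and 29944 bound reads in HEK cells, or 0.171% (0.168 to 0.174) and 0.194% (0.192 to 0.197) of coding counts, which placed it 15th of 75479 and 12th of 75481 coding regions. GAPDH had 7497 and 18371 reads, or 0.0982% (0.0960 to 0.1005) and 0.119% (0.117 to 0.121). PKM had 6703 and 13761 reads, or 0.0878% (0.0857 to 0.0900) and 0.0893% (0.0878 to 0.0908), so the intervals of its share overlapped between the libraries while those of GAPDH and ENO1 did not. Ranks count transcripts, several of which belong to one gene.

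With cycloheximide in ES cells the coding region of Eno1 had 260654 reads, or 0.160% of coding counts (0.159 to 0.160), and with emetine 95200 reads, or 0.121% (0.120 to 0.122). Gapdh had 239442 and 85370 reads, which are 0.147% (0.146 to 0.147) and 0.108% (0.108 to 0.109). Pkm had 191092 and 70524 reads, which are 0.117% (0.117 to 0.118) and 0.0896% (0.0889 to 0.0903). All 3 shares were lower with emetine, and no interval overlapped that of the other library.

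**Figure D1:**
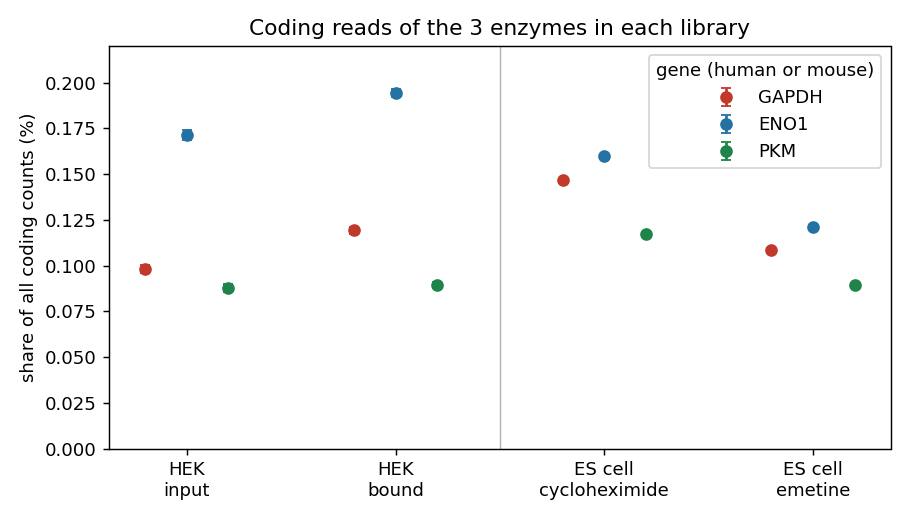
Share of all coding counts (%, vertical axis) held by the coding region of each enzyme in the 4 libraries; points are single libraries and bars 95% exact binomial intervals, mostly smaller than the points. ENO1 is highest and PKM lowest in every library, and the 3 ES cell shares are lower with emetine, for Eno1 0.121% against 0.160%.

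The HEK pair asks if footprints co-purify with ribosomes pulled out by their tag. After capture the coding reads of GAPDH and ENO1 lay above the median coding region, and those of PKM close to it. GAPDH was 1.23-fold higher in the bound library on the scaled count (log2 ratio 0.30, interval 0.26 to 0.34), and ENO1 was 1.15-fold higher (0.20, 0.17 to 0.23). PKM was 1.03-fold higher (0.046, 0.0040 to 0.089). Its direction rests on the scaling, since the log2 ratio was -0.00092 when the median was taken over coding regions with at least 500 reads. None of the 3 reached a 1.5-fold difference, which 1.37% of 26492 coding regions reached upwards and 4.37% downwards. The median log2 ratio of the enzymes was 0.20, against 0 for all coding regions by construction.

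The 3 enzymes differed among themselves in this pair by more than counting error. The log2 ratio of GAPDH exceeded that of ENO1 by 0.097 (interval 0.048 to 0.15) and that of PKM by 0.26 (0.20 to 0.31), and ENO1 exceeded PKM by 0.16 (0.11 to 0.21). These differences do not depend on the scaling, and without replicate libraries they describe these libraries only. Among the 197 coding regions with at least 10000 summed reads, whose median log2 ratio was 0.13, GAPDH lay at percentile 97.0, ENO1 at 83.2 and PKM at 15.2. The 197 are counted by transcript and include all 7 listed human ones. Some of those level with or above GAPDH are therefore its own other transcripts, of which ENST00000396858 lay at percentile 99.5. Among coding regions of every abundance PKM lay at percentile 57.5. PKM was therefore above the median of all coding regions and below that of abundant ones.

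The ES cell pair asks if the footprints move when another elongation inhibitor is used. The coding reads of all 3 enzymes were lower with emetine, to nearly the same degree in their main transcripts. Gapdh was 1.60-fold lower (log2 ratio -0.67, interval -0.69 to -0.66), Eno1 1.56-fold lower (-0.64, -0.65 to -0.63) and Pkm 1.54-fold lower (-0.62, -0.64 to -0.61). All 3 passed a 1.5-fold difference, as did 7.46% of 28604 coding regions in that direction, and their median log2 ratio was -0.64. Scaled to total coding counts the log2 ratios were -0.44, -0.40 and -0.39, and none of the 3 passed 1.5-fold, a difference that 2.45% of coding regions then reached downwards. Other abundant coding regions were low as well. Of the 250 with at least 100000 summed reads, 81 (32.4%) were at least 1.5-fold lower at the main scaling, and their median log2 ratio was -0.52.

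Within this abundant group Gapdh lay at percentile 14.4, Eno1 at 21.6 and Pkm at 24.8, so all 3 were low within it. The main transcripts of the enzymes differed little from each other here in the ratio of their coding reads. Gapdh was lower than Eno1 by a log2 difference of -0.035 (interval -0.050 to -0.019) and lower than Pkm by -0.050 (-0.067 to -0.033). The difference between Eno1 and Pkm was -0.015, with an interval from -0.031 to 0.0014 that includes 0. With the other listed Gapdh transcript the coding log2 ratio of Gapdh was -0.75, at percentile 5.60 of the abundant group. Over whole transcripts the log2 ratios of Gapdh, Eno1 and Pkm were further apart, at -0.75, -0.57 and -0.51.

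**Figure D2:**
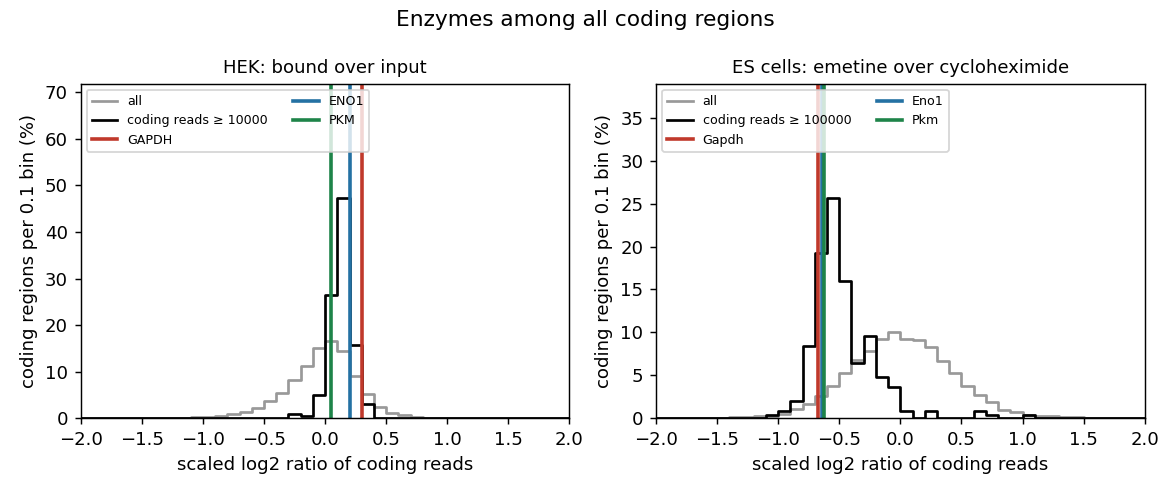
Distribution of scaled log2 ratios of coding reads (horizontal axis) as the percent of coding regions per bin of 0.1 (vertical axis), for all coding regions with at least 100 summed reads (grey) and for the most abundant ones (black); coloured lines mark the 3 enzymes. In HEK cells the enzymes spread from 0.046 to 0.30 across the abundant group, and in ES cells they lie together between -0.67 and -0.62.

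Reads outside the coding region were set against the coding reads of the same transcript, a measure that needs no scaling. In ES cells the leaders of Eno1 and Pkm had more reads per coding read with emetine. The Eno1 leader had 14567 reads with cycloheximide and 11425 with emetine, which are 5.59 (interval 5.50 to 5.68) and 12.0 (11.8 to 12.2) per 100 coding reads. The Pkm leader had 5329 and 3707 reads, or 2.79 (2.71 to 2.87) and 5.26 (5.08 to 5.43) per 100 coding reads. Relative to its coding region the leader was thus 2.15-fold higher for Eno1 (log2 difference 1.10, interval 1.07 to 1.14) and 1.88-fold higher for Pkm (0.91, 0.85 to 0.98). On the scaled count itself the Eno1 leader was higher with emetine (log2 ratio 0.46, 0.43 to 0.50), and so was that of Pkm (0.29, 0.23 to 0.35). The coding regions of both were lower.

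The main Gapdh transcript, ENSMUST00000117757, had 0 leader reads in both libraries, which allows up to 0.0013 leader reads per 100 coding reads with cycloheximide and 0.0035 with emetine. The other Gapdh transcript, ENSMUST00000118875, had 11928 and 6128 leader reads, or 5.11 (5.02 to 5.21) and 7.79 (7.59 to 7.99) per 100 coding reads, a 1.52-fold higher ratio with emetine (log2 difference 0.61, 0.56 to 0.65). On the scaled count itself this Gapdh leader was lower with emetine (log2 ratio -0.15, -0.19 to -0.10), though less so than its coding region (-0.75). Relative to the coding region all 3 leaders with reads passed 1.5-fold, as did 39.5% of 10499 mouse leaders in that direction. Among the 164 leaders of transcripts with at least 100000 coding reads the median log2 difference was 0.85, and the enzymes lay at percentiles 61.6 (Eno1), 54.9 (Pkm) and 35.4 (Gapdh). They were near the middle of other abundant transcripts.

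Trailers of the enzymes held few reads beside their coding regions in every library. In ES cells the Gapdh trailer had 232 reads with cycloheximide and 238 with emetine, or 0.0969 (0.0848 to 0.110) and 0.279 (0.244 to 0.317) per 100 coding reads. That of Eno1 had 317 and 190 reads, or 0.122 (0.109 to 0.136) and 0.200 (0.172 to 0.230). That of Pkm had 102 and 58 reads, or 0.0534 (0.0435 to 0.0648) and 0.0822 (0.0624 to 0.106). The median transcript with at least 100 coding reads in the library had 0.284 with cycloheximide (25798 transcripts) and 0.379 with emetine (24176). All 3 enzymes were below it in both libraries.

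Relative to the coding region, the trailer was 2.87-fold higher with emetine for Gapdh (log2 difference 1.52, interval 1.26 to 1.79), 1.64-fold for Eno1 (0.71, 0.45 to 0.98) and 1.54-fold for Pkm (0.62, 0.13 to 1.10). All 3 passed 1.5-fold, as did 35.8% of 5467 mouse trailers. Among the 117 transcripts with at least 100000 coding reads and a trailer above the minimum, the median log2 difference was 1.52. That median is the value of Gapdh itself (percentile 49.6), and its other listed transcript is also among the 117, at percentile 53.8. Eno1 and Pkm lay low, at 15.4 and 8.55. For Eno1 and Pkm the trailer's own scaled log2 ratio was 0.075 (-0.19 to 0.34) and -0.0011 (-0.49 to 0.48), so neither trailer differed from the median coding region beyond counting error. Only for Gapdh among the 3 was the trailer's own ratio above 0 beyond counting error (0.85, 0.58 to 1.12).

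The part of each transcript that the files count in none of the 3 regions also held many reads. For Eno1 it had 47289 reads with cycloheximide and 21664 with emetine, or 18.1 (18.0 to 18.3) and 22.8 (22.4 to 23.1) per 100 coding reads. For Pkm it had 17720 and 14741 reads, or 9.27 (9.13 to 9.42) and 20.9 (20.5 to 21.3), a 2.25-fold higher ratio with emetine (log2 difference 1.17, 1.14 to 1.21). Pkm lay at percentile 85.1 of 248 abundant transcripts in this measure, whose median was 0.76, and Eno1 (0.33, 0.30 to 0.35) at percentile 22.6.

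Gapdh went the other way in its main transcript. There 12317 reads with cycloheximide and 2813 with emetine lay outside the 3 parts, or 5.14 (5.05 to 5.24) and 3.30 (3.17 to 3.42) per 100 coding reads (log2 difference -0.64, -0.70 to -0.58). This lay at percentile 3.23 of abundant transcripts. In the other Gapdh transcript, however, the same measure was 7.95 (7.83 to 8.07) and 12.2 (11.9 to 12.4), higher with emetine by 0.61 (0.58 to 0.65), so its direction for Gapdh depends on the transcript model. Of the 3 main transcripts, 1 passed 1.5-fold upwards and 1 downwards, against 38.7% and 8.13% of 16258 transcripts.

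**Figure D3:**
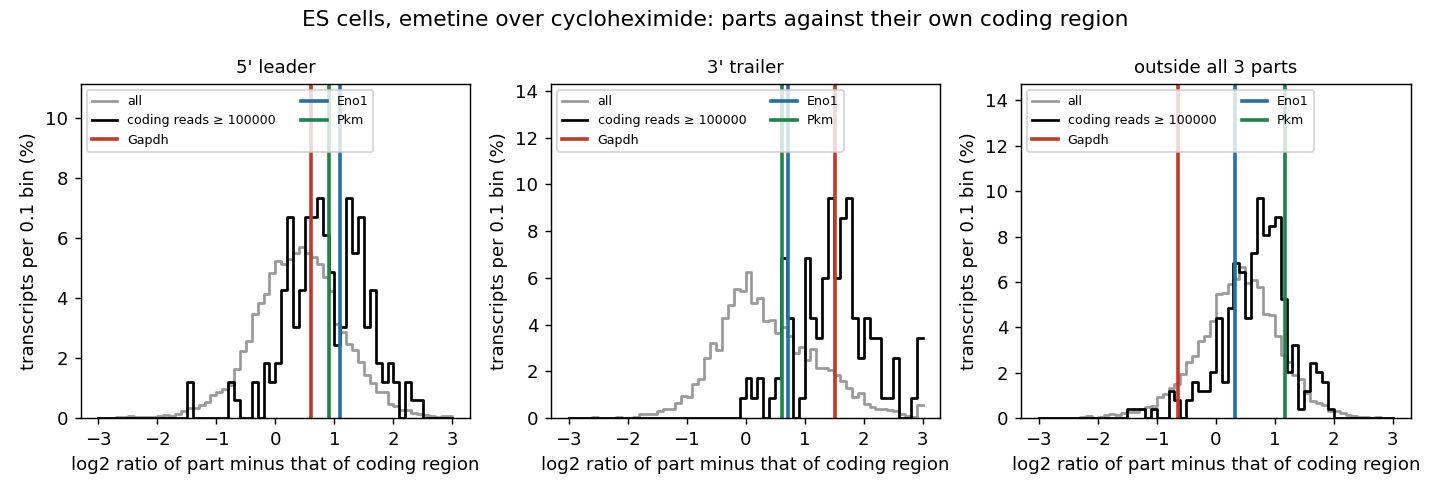
Difference between the log2 ratio (emetine over cycloheximide) of a part and that of its own coding region (horizontal axis), as the percent of transcripts per bin of 0.1, for all transcripts with at least 100 reads in both (grey) and for those with at least 100000 coding reads (black), with values beyond 3 in the outermost bins. Coloured lines mark the enzymes; the Gapdh line is from ENSMUST00000118875 for the leader, at 0.61, and from ENSMUST00000117757 elsewhere, at 1.52 for the trailer and -0.64 outside the 3 parts.

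In HEK cells the main transcripts of the enzymes had few reads in leaders and trailers, as did the median transcript with at least 100 coding reads in the library. That median was 0.629 input and 0.542 bound leader reads per 100 coding reads, and 0.0764 and 0 trailer reads. It covers different sets, with 13838 input and 20728 bound transcripts for trailers. All 3 leaders were below it in both libraries. The trailers of GAPDH and PKM were above it in both, and that of ENO1 only after capture. The ENO1 leader had 66 input and 95 bound reads, or 0.505 (0.390 to 0.643) and 0.317 (0.257 to 0.388) per 100 coding reads. It was 1.59-fold lower after capture relative to its coding region (log2 difference -0.67, interval -1.14 to -0.19), past a 1.5-fold difference that 16.2% of 930 leaders reached downwards. Leaders of abundant transcripts were low as well. Among the 45 with at least 10000 coding reads the median difference was -0.52, and ENO1 lay at percentile 37.8. The PKM leader had 40 and 37 reads, or 0.597 (0.426 to 0.813) and 0.269 (0.189 to 0.371) per 100 coding reads, a difference of -1.14 (-1.84 to -0.47). The GAPDH leader had 5 and 14 reads, or 0.0667 (0.0216 to 0.156) and 0.0762 (0.0417 to 0.128), and no difference was detectable at this depth (0.16, -1.36 to 2.02).

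HEK trailers held 8 and 7 reads for GAPDH, 3 and 2 for ENO1, and 29 and 15 for PKM, before and after capture. For PKM this is 0.433 (0.290 to 0.622) and 0.109 (0.0610 to 0.180) per 100 coding reads, 3.84-fold lower after capture relative to the coding region (log2 difference -1.94, -2.99 to -1.04). The values of GAPDH (-1.41, -3.18 to 0.17) and ENO1 (-1.51, -5.36 to 1.35) pointed the same way with intervals that include 0. Trailers with many reads were not low after capture. Over the 1687 HEK transcripts with at least 100 reads in both trailer and coding region the median difference was -0.0052, and 49.4% were above 0. None of the main enzyme transcripts reached that minimum in the trailer. Sparse trailers of other transcripts were low. Over 583 transcripts with at least 1000 coding reads and 10 to 99 trailer reads the median difference was -1.31, and 85.8% were below 0. For 1503 leaders of that kind the median was -0.51, and 76.3% were below 0. For the 930 leaders with at least 100 reads it was -0.21, and 31.7% were above 0. The 2 sparse sets were chosen after seeing the read numbers of the enzymes.

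Outside the 3 parts GAPDH had 925 input and 1959 bound reads, or 12.3 (11.5 to 13.2) and 10.7 (10.2 to 11.2) per 100 coding reads, well above ENO1 with 1.86 (1.63 to 2.11) and 1.61 (1.47 to 1.76) and PKM with 3.01 (2.61 to 3.47) and 2.36 (2.11 to 2.64). The median HEK transcript with at least 100 coding reads in the library had 3.31 (14290 transcripts) and 3.28 (21487). Relative to the coding region these reads were lower after capture for GAPDH (log2 difference -0.21, -0.33 to -0.090) and PKM (-0.35, -0.61 to -0.087), and for ENO1 the interval included 0 (-0.21, -0.44 to 0.023). None of the 3 passed 1.5-fold, which 14.9% of 2672 transcripts reached downwards and 4.30% upwards. The median difference of these transcripts was -0.17, and that of the 189 with at least 10000 coding reads was -0.27. Among the 189, GAPDH lay at percentile 60.8, ENO1 at 63.0 and PKM at 37.6, so a lower value after capture was common to abundant transcripts.

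**Figure D4:**
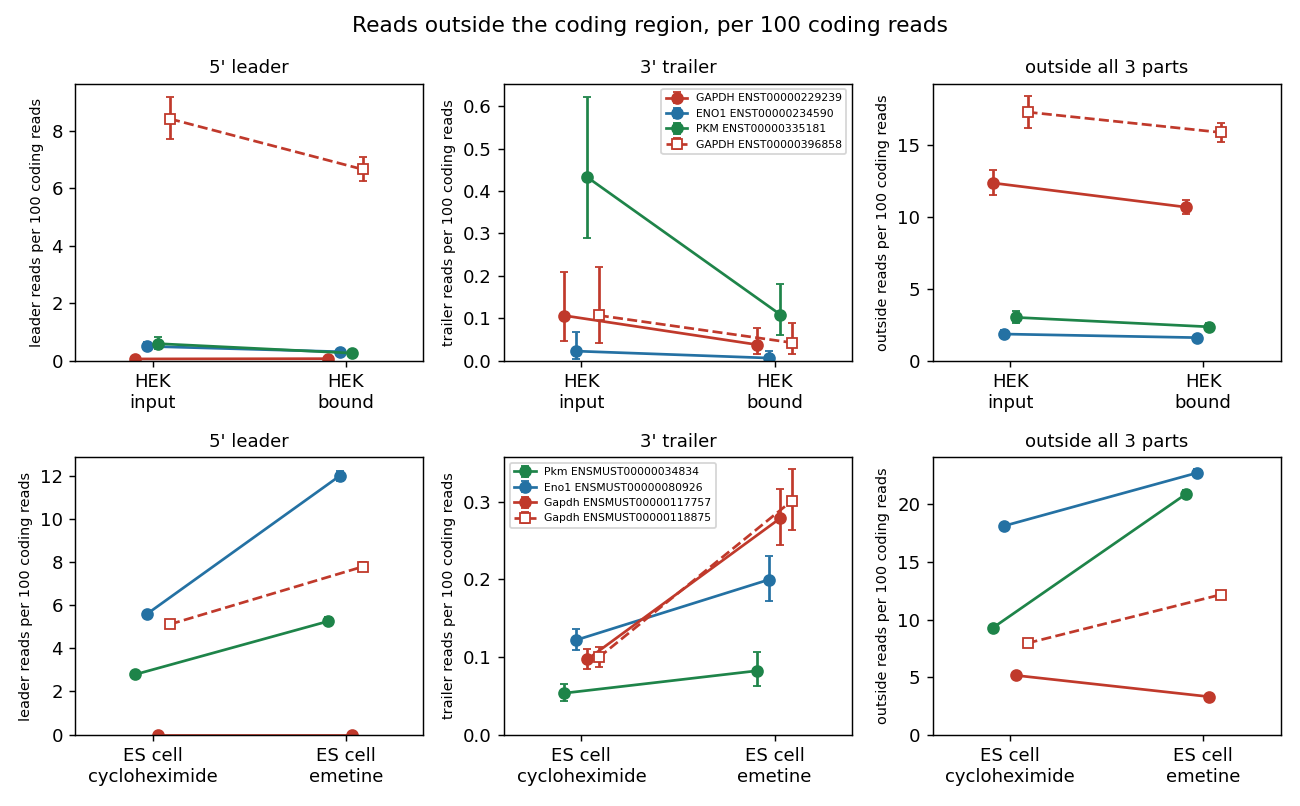
Reads per 100 coding reads (vertical axis) in the leader, the trailer and outside all 3 parts, for the HEK pair (top row) and the ES cell pair (bottom row); points are single libraries with 95% exact intervals and lines join the libraries of a pair. Open squares are a second transcript of GAPDH or Gapdh; the Eno1 leader is at 5.59 with cycloheximide and 12.0 with emetine.

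The transcripts listed for one gene showed how far these values rest on the transcript model. Human ENST00000229239, ENST00000396861 and ENST00000396859 of GAPDH had identical coding counts in both libraries, and their leaders differed by at most 5 input and 13 bound reads. The fourth, ENST00000396858, had 6538 and 16341 coding reads, fewer by 959 and 2030, and 550 and 1087 leader reads, more than the first by 545 and 1073. Compared with the first it had more reads outside the 3 parts, by 203 and 630, and fewer over the whole transcript, by 212 and 327. Its higher leader count thus came without a higher total. Its leader held 8.41 (7.70 to 9.18) and 6.65 (6.25 to 7.07) reads per 100 coding reads, against under 0.1 for the other 3. Relative to its own coding region this leader was lower after capture (log2 difference -0.34, -0.49 to -0.18), the reverse sign of the sparse leader of ENST00000229239. The coding ratio of the transcript, 1.26-fold higher after capture (0.33, 0.29 to 0.37), was within the interval of the others.

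The PKM transcripts ENST00000335181 and ENST00000319622 differed by 621 input and 1320 bound coding reads, or 9.26% and 9.59% of the coding reads of the first. The sources used here do not say which enzyme form each encodes. These net differences had a scaled log2 ratio of 0.096 (interval -0.042 to 0.24), which overlaps that of the whole coding region (0.046, 0.0040 to 0.089). The trailers of both had the same counts, 29 and 15.

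In mouse Gapdh the coding region of ENSMUST00000118875 had 233241 reads with cycloheximide and 78672 with emetine, fewer than that of ENSMUST00000117757 by 6201 and 6698. These net differences made up 2.59% and 7.85% of the coding reads of the latter. They were higher with emetine by a scaled log2 ratio of 0.92 (0.87 to 0.97), while both coding regions were lower (-0.67, and -0.75 with interval -0.77 to -0.74). Reads outside the 3 parts differed by nearly the same numbers in the other direction, 6222 and 6754, so the net loss of coding reads between the models was nearly equal to the net gain of reads in none of the parts. The files give no positions, so where in the transcript they lie was not analysed here.

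**Figure D5:**
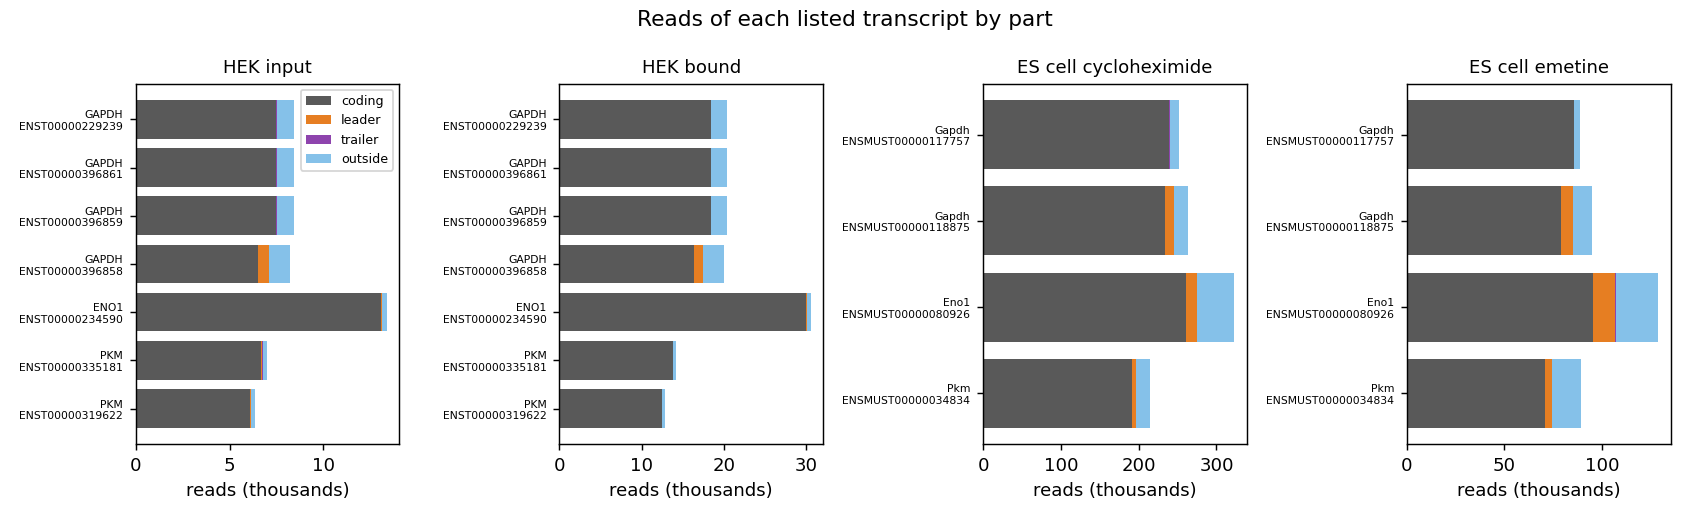
Reads (in units of 1000, horizontal axis) of each of the 11 listed transcripts in each library, stacked by coding region, leader, trailer and reads in none of these parts. Leader reads are many in 1 of the 4 GAPDH bars (550 in the input, against at most 5 in the others). They appear in 1 of the 2 Gapdh bars (11928 with cycloheximide), although transcripts of a gene have similar totals.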

How the data were processed

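The deposited values are raw read counts, made by the authors, with 1 file per library. Per the file headers they are given for the whole transcript, coding region, leader and trailer. The submitters' processing notes list CASAVA 1.8, Bowtie2 2.0.6 and TopHat2 2.0.7, with hg19 and mm10 as builds, and give no roles. No source used here names the counter, the annotation release or the limits of the parts. Reads copied by PCR do not count separate molecules, and intervals and floors (3 reads for a count of 0) therefore cover no more than counting error.

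The members, lists and comparisons were chosen with earlier results of these data known. The first listed transcript of each gene was the main one, and no gene beyond the 11 transcripts was named. Identifiers were matched without their version. Reads in none of the parts were the whole transcript minus the 3 parts. Before log2, 0.5 scaled reads were added to each count. Ratios of counts and shares carry exact Clopper-Pearson intervals, and a part against its coding region, or one gene against another, an exact conditional interval of the odds ratio. On data simulated with counting error alone and 200 coding regions changed 1.5-fold, 95% intervals held the true value in 95% of the HEK and 94% of the mouse cases. This checks the computation and cannot show how far replicate libraries would differ. Python 3.11.15, scipy 1.17.1 and, for an alternative scaling, edgeR 4.0.16 were used. No promoter or protein sequence is shown, because the counts bear on neither.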

Additional observations from a re-analysis of the deposited data

How the results depend on the processing

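No paired analysis was possible because the groups hold a single library each. Of 67 alternative values, 45 stayed within the counting interval of the main value, 20 left it and 2 turned sign. Many of the 45 could hardly have left it, so their number does not measure robustness. Leaving out the added 0.5 scaled reads changes large counts little, and some GAPDH transcripts share their coding and trailer counts with the main one. Sparse leaders and trailers have wide intervals. Values are log2 ratios. With TMM scaling GAPDH was 0.36, ENO1 0.26 and PKM 0.10. With a minimum of 500 summed reads they were 0.25, 0.16 and -0.00092, and Gapdh, Eno1 and Pkm were -0.66, -0.63 and -0.61. With a minimum of 1 read in each library they were 0.35, 0.26 and 0.099 in HEK cells, and -0.69 for Gapdh and -0.65 for Eno1. Each of these settings shifts all ratios of a pair alike. Scaled to total coding counts, Gapdh, Eno1 and Pkm were -0.44, -0.40 and -0.39. Over whole transcripts they were -0.75, -0.57 and -0.51. The transcript ENSMUST00000118875 gave -0.75 for Gapdh. The leader of ENST00000396858 gave -0.34 against its coding region, in place of 0.16 for the 19 leader reads of the main GAPDH transcript; the cause was not tested. Depth limits the HEK leaders and trailers most, where only the ENO1 leader reached 100 summed reads among the main transcripts.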
